A study of Arabidopsis thaliana with 22 samples.

Results

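This account concerns 35 nuclear genes of Arabidopsis thaliana that rose moderately under red light in wild-type seedlings and still had higher values under red light in phyABDE, a quadruple mutant that keeps only phytochrome C. They were taken from 22746 probe sets of the ATH1 array, of which 13513 are named for 1 gene. A gene was included when its mean log2 intensity under red light lay 1 to under 3 above darkness in wild type, which 590 probe sets met, and at least 0.6 above darkness in phyABDE with each of the 3 equal-numbered pairs of arrays positive. Of the 37 that met both conditions, CaS, a chloroplast calcium sensor, and the antenna gene LHCB4.2 were set aside by name. So were other genes, mostly but not only of photosynthesis, that had not met both conditions. The other 555 probe sets of the same wild-type range, among them CaS and LHCB4.2, serve as the comparison set. The genes were thus selected on the Dark and Rc50 values of wild type and phyABDE, so their changes there are a description, and the tests below concern phyABCDE, a quintuple mutant without any phytochrome, and the arrays of 2 h of red light.

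The samples were whole seedlings in the Ler background, 1 array each. Seeds spent 4 days in the cold and dark and 3 h in white light before 4 days of growth in darkness (Dark) or in continuous red light of 50 µmol per square metre and second (Rc50); another set, DR2h, had 2 h of that red light after dark growth. Each mutant has 3 Dark, 3 Rc50 and 2 DR2h arrays, and wild type (WT) has 4 Dark and 2 Rc50 arrays; the mutant alleles are not given in the sources used here. The 17 mutant and WT Dark replicate 1 arrays were labelled with the 3' IVT Express kit, and the other 5 WT arrays, taken from earlier work, with the One-cycle kit. The phytochrome genes have no named probe set here, so the genotypes were not checked against them.

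Phytochromes are photoreceptors that red light turns into an active form. The active form enters the nucleus and leads to the loss of transcription factors that hold back seedling greening, so that genes for chloroplast function come on and the stem stops elongating. Phytochrome B is known as the main receptor of continuous red light in Arabidopsis, and phytochrome C is known to pair largely with phytochromes B and D.

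Only 6 of the 35 genes carry a name. CURT1C is a CURVATURE THYLAKOID protein, one of a family that bends thylakoid membranes at the edges of grana. OTP81 belongs to the pentatricopeptide repeat proteins that process organelle transcripts. AGL87 is a MADS-box transcription factor, iqd21 an IQ-domain protein of the calmodulin-binding kind, UGT71B1 a UDP-glucosyl transferase and ATLP-1 a thaumatin-like protein. The other 29 are known here by locus code, and no role is given for them. All 35 are protein-coding, with 11 on chromosome 1, 10 on chromosome 2, 5 on chromosome 3, 5 on chromosome 4 and 4 on chromosome 5. AT2G29290 and AT2G29310 lie with 1 protein-coding gene between them, and AT5G16010 and AT5G16030 with 2 between them.

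The values are log2 intensities, and a change is a difference of them. In wild type the change of the 35 genes ranged from 1.02 to 2.75 with a median of 1.94. In phyABDE it ranged from 0.61 to 1.84 with a median of 0.67, and its median share of the wild-type change was 40.47%, from 24.86% to 89.32%. This share sets mutant arrays of the 3' IVT Express kit against wild-type arrays of the One-cycle kit. The limits used to choose the genes also set a floor to it. A probe set was called when limma's adjusted p was under 0.05. All 35 were called higher in wild type, where 13.7% of all probe sets were, and 3 in phyABDE, where 0.127% were; these shares follow from the way the genes were chosen. The Rc50 arrays of phyABDE lay wholly above its Dark arrays for 33 genes, against 10.8% of all probe sets, and overlapped for AT4G23680 and AT2G30540. Just inside the limit of 0.6 lay CURT1C, AT1G66430 and AT2G19310, each at 0.61, and just outside AT2G03750 and AT4G31210 at 0.60 and NdhL, a subunit of the chloroplast NDH complex, at 0.59.

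**Figure D1:**
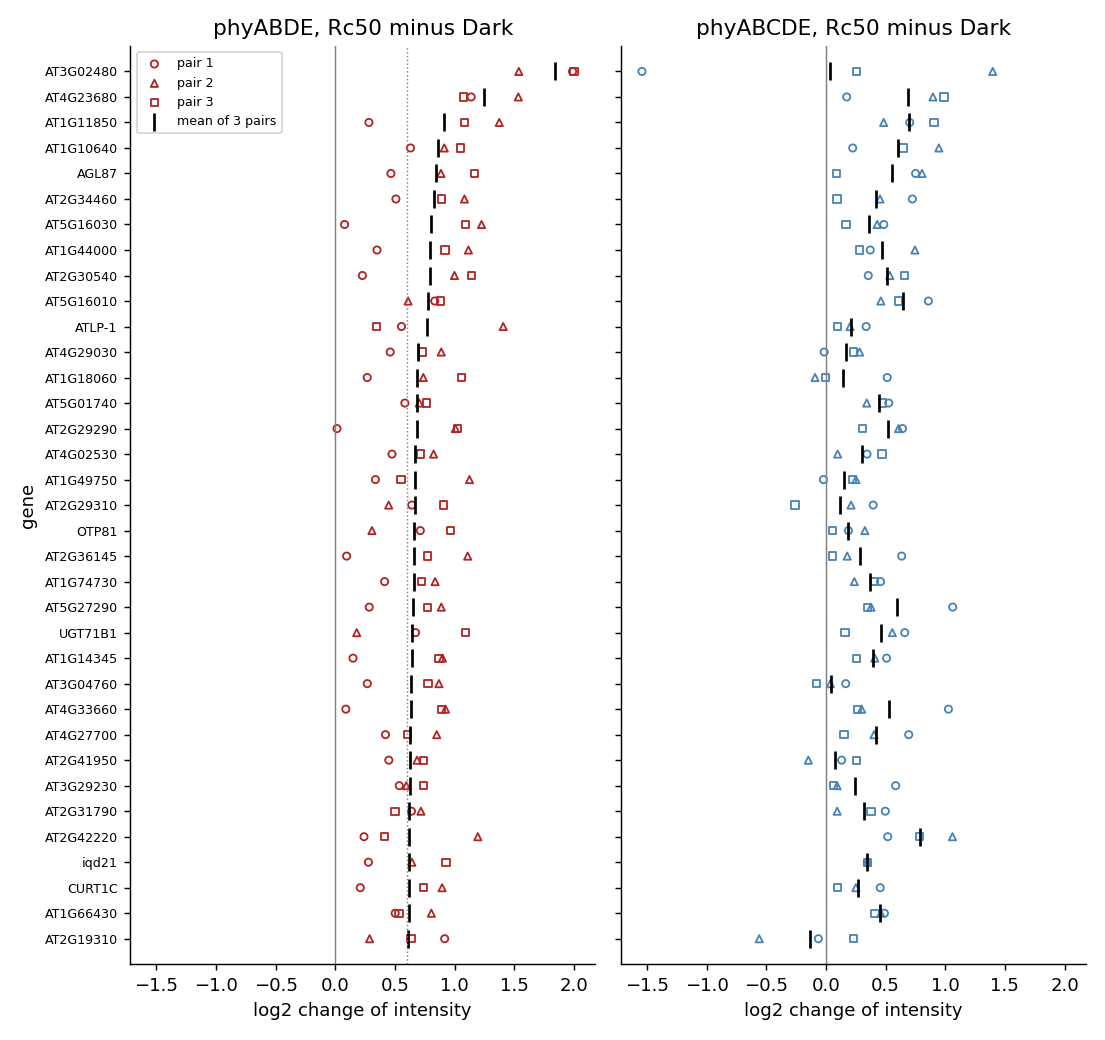
Change of log2 intensity from Dark to Rc50 for each of the 35 genes (rows) in phyABDE (left, red) and phyABCDE (right, blue); symbols are the 3 equal-numbered pairs, the black tick their mean, and the dotted line the limit of 0.6 used in phyABDE. The means in phyABCDE run from -0.13 to 0.79 and lie below those in phyABDE for all genes but AT2G42220.

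The 3 pairs of phyABDE were not alike. Their medians over the 35 genes were 0.45, 0.89 and 0.87, and the first pair was the smallest for 26 genes. The comparison set leaned the same way, with medians of 0.04, 0.23 and 0.25 and the first pair smallest for 309 of 555. Over all probe sets the first pair was the smallest for 6325 of 22746. The signal of GAPDH probes at the 3' end minus the 5' end, a sign of RNA integrity, was 0.07, 0.52 and 0.53 in the 3 Rc50 arrays of phyABDE and 0.12, 0.14 and 0.18 in its Dark arrays, so both arrays with larger changes also had the larger GAPDH difference. The same difference for actin did not follow: it was 3.24, 3.21 and 3.41 under Rc50 and 3.13, 3.35 and 3.17 in darkness. The part of either in the result was not tested. In phyABCDE the same quantity was 0.04, 0.22 and -0.03 under Rc50 and 0.18, 0.43 and 0.18 in darkness, and the pair medians were 0.49, 0.35 and 0.26.

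The first tested comparison asked whether these genes respond to continuous red light where no phytochrome is left. In phyABCDE 34 of the 35 genes had higher mean values under Rc50 than in darkness, where 52.2% of all probe sets did, and the median change was 0.37, from -0.13 for AT2G19310 to 0.79 for AT2G42220. None of the 35 was called, and the lowest adjusted p was 0.659 (limma, 3 arrays a group); 0.00879% of all probe sets were called. At an unadjusted p under 0.05, 15 genes were higher, where 3.64% of all probe sets were. This count depends on single arrays: leaving out 1 array, 6 to 14 genes stood at that p in either direction. The median share of the wild-type change, which was measured with the other kit, was 18.42%. In whole seedlings, fewer cells of a type and less RNA per cell cannot be told apart.

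Counts that need no model ran the same way. All 3 equal-numbered pairs of phyABCDE were positive for 27 genes (77.14%), against 15.9% of all probe sets and 33.33% of the comparison set. The Rc50 arrays lay wholly above the Dark arrays for 16 genes (45.71%), against 6.08% of all probe sets and 14.59% of the comparison set. The comparison set had a median change of 0.10, with 383 of 555 above 0, and all probe sets 0.01. A mean of at least 0.6 with all pairs positive, the condition set in phyABDE, was met in phyABCDE by 5 of the 35 genes (14.29%), against 0.462% of all probe sets. These 5, AT2G42220, AT1G11850, AT4G23680, AT5G16010 and AT1G10640, are 27.78% of the 18 probe sets of the wild-type range that met it. Members and comparison set differ in more than phyABDE: their median wild-type changes were 1.94 and 1.39 and their median levels over all arrays 6.92 and 6.25.

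**Figure D2:**
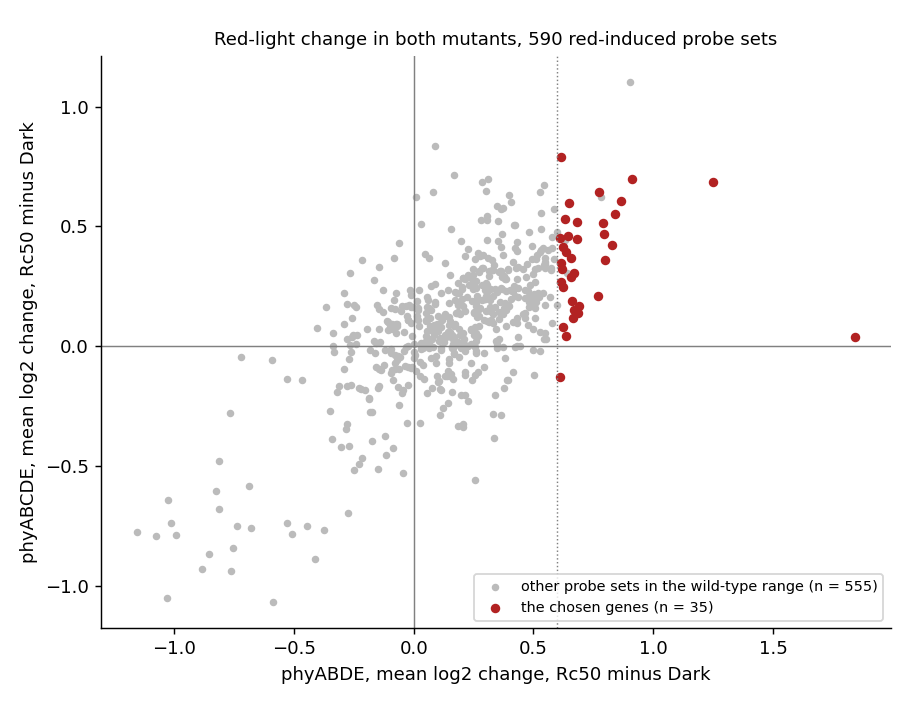
Mean change of log2 intensity from Dark to Rc50 in phyABDE (horizontal) and phyABCDE (vertical) for the 590 probe sets of the wild-type range, the 35 genes in red and the other 555 in grey; the dotted line is the limit of 0.6. The red points sit right of the line by the way they were chosen, 34 of them lie above 0 on the vertical axis, and the grey points right of the line are CaS and LHCB4.2, set aside by name, and AT1G07280 (0.64) and AT5G41050 (0.63), for which not all pairs of phyABDE were positive.

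With 3 arrays a group the precision is low: the median half-width of the 95% interval of a gene's change in phyABCDE was 0.40. For 22 genes this interval reached the gene's own change in phyABDE, and for 13 it stayed below it. The change in phyABCDE was as large as in phyABDE for 1 gene, AT2G42220 (0.79 and 0.62). Since the values in phyABDE were selected to be high, the gap between both mutants is a description and carries no test.

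Among the named genes, AGL87 had the largest change in phyABDE. Its levels in phyABDE were 6.37, 6.01 and 6.13 in darkness and 6.84, 6.89 and 7.30 under Rc50. In phyABCDE they were 5.37, 5.37 and 5.85 in darkness and 6.12, 6.17 and 5.94 under Rc50. All Rc50 arrays lay above all Dark arrays in both mutants, and in each light condition every array of phyABCDE was below every array of phyABDE. Wild type had 5.88, 5.31, 5.56 and 6.57 in darkness and 7.33 and 7.34 under Rc50. After 2 h of red light AGL87 stood at 5.51 and 6.03 in phyABDE and 5.23 and 5.49 in phyABCDE, below the Rc50 range in both. The change in phyABCDE was 0.55 ± 0.24 (SE; adjusted p = 0.846, limma).

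CURT1C and OTP81, both tied to the chloroplast, changed less than AGL87 in phyABCDE, as did the other named genes. The change of ATLP-1, the thaumatin-like protein, lay between theirs. CURT1C stood at 8.25, 8.40 and 8.61 in darkness and at 8.70, 8.65 and 8.71 under Rc50. Each Rc50 array was above each Dark array, but the change was 0.27 ± 0.15 (adjusted p = 0.907) against 0.61 in phyABDE. OTP81 stood at 4.96, 4.77 and 4.32 and 5.15, 5.09 and 4.37, with groups that overlap and a change of 0.19 ± 0.21 (adjusted p = 0.977) against 0.66 in phyABDE. OTP81 is dim, and no detection calls are given, so whether it exceeded background is unknown.

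UGT71B1 had levels of 5.00, 5.43 and 5.44 in darkness and 5.67, 5.98 and 5.60 under Rc50 in phyABCDE, a change of 0.46 ± 0.18 (adjusted p = 0.841). Its groups did not overlap, and its change in phyABDE was 0.65. ATLP-1 had 6.13, 6.04 and 5.81 and 6.47, 6.25 and 5.91, which overlap, with a change of 0.21 ± 0.31 (adjusted p = 0.984) against 0.77. For iqd21 the levels in phyABCDE were 6.61, 6.31 and 6.41 in darkness and 6.96, 6.66 and 6.76 under Rc50, with no overlap and a change of 0.35 ± 0.14 (adjusted p = 0.842) against 0.61. In phyABDE iqd21 went from 6.66, 6.22 and 6.16 in darkness to 6.94, 6.86 and 7.09 under Rc50, also with no overlap. Its DR2h arrays, at 6.23 and 6.40 in phyABDE and 6.11 and 6.36 in phyABCDE, stayed below the Rc50 range of each mutant, and wild type under Rc50 had 8.04 and 7.81. Of the 6 named genes, 4 thus had Rc50 arrays wholly above Dark arrays in phyABCDE (6.08% of all probe sets did), and none was called (0.00879% of all probe sets were).

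**Figure D3:**
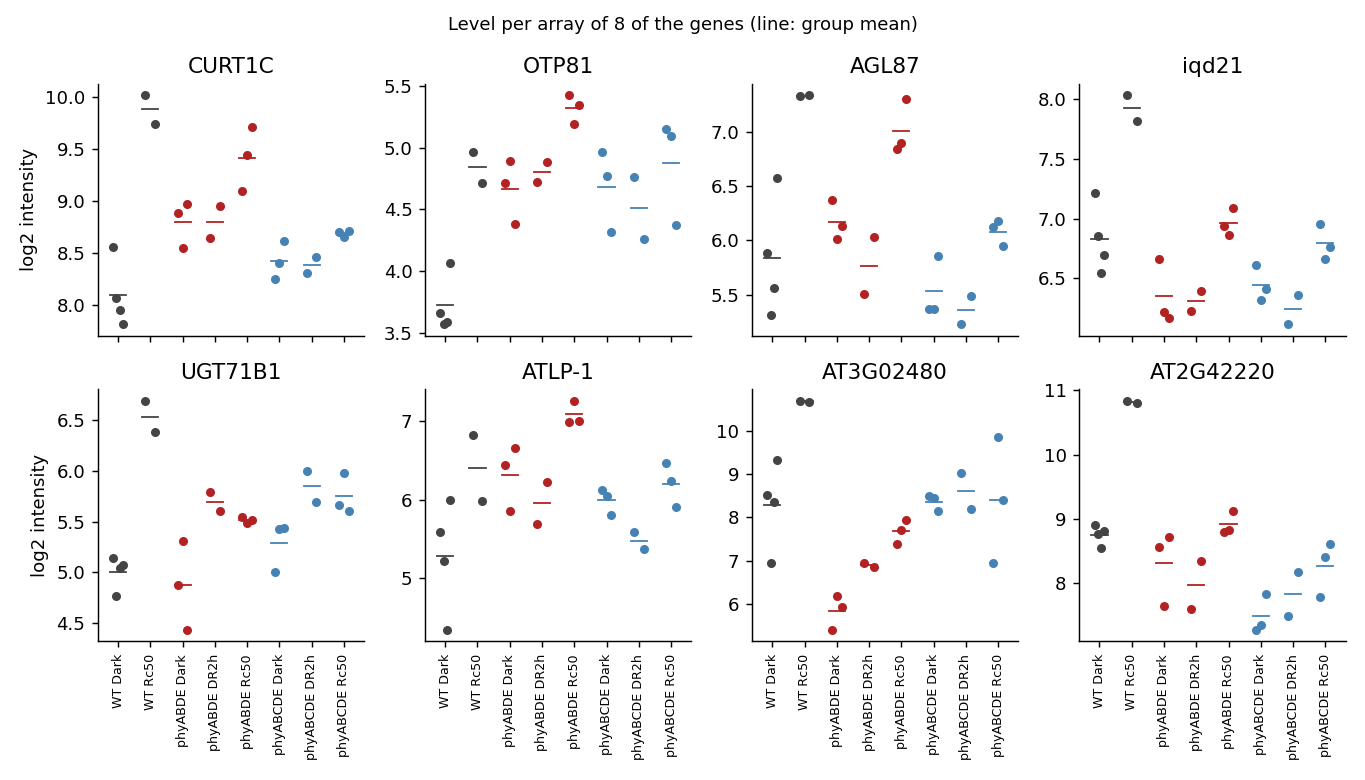
Log2 intensity in every array for the 6 named genes and for AT3G02480 and AT2G42220, by genotype and light treatment (grey WT, red phyABDE, blue phyABCDE; lines are group means). For AGL87, CURT1C, iqd21 and UGT71B1 the blue Rc50 points sit above the blue Dark points, and for AT3G02480 they run from 6.94 to 9.85; 5 WT arrays were labelled with another kit.

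AT3G02480 had the largest change of all in phyABDE. Its levels there were 5.40, 6.18 and 5.93 in darkness, 6.96 and 6.85 after 2 h and 7.39, 7.72 and 7.93 under Rc50. In phyABCDE they were 8.48, 8.45 and 8.14, 9.02 and 8.20 and 6.94, 9.85 and 8.39. The dark level of phyABCDE was thus higher than any level of phyABDE, and its 3 Rc50 arrays spread over a wide range with a change of 0.04 ± 0.54 (adjusted p = 0.997). Wild type had 8.53, 6.96, 8.36 and 9.32 in darkness and 10.69 and 10.66 under Rc50.

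Levels of 8 seed maturation genes (OLEO3, LEA4-5, AtLEA4-1, LEA, M17, LEA18, AT2G46140 and AT2G44060, a list made after the table had been opened) are given beside these values. Their mean was 9.65 to 9.98 in Dark and 9.37 to 9.71 in Rc50 arrays of phyABCDE, 7.98 to 9.49 and 7.43 to 9.06 in those of phyABDE, and 5.84 to 7.50 and 6.55 to 7.02 in wild type. After 2 h it was 9.50 and 9.49 in phyABDE and 9.89 and 9.62 in phyABCDE. None of the 8 was called between the mutants in any light condition. OLEO3 differed by -0.24 in darkness and -0.01 under Rc50, and LEA4-5 by -1.86 and -1.61. Against WT Dark replicate 1, dark phyABCDE differed by 9.59 for M17, 5.14 for LEA, 4.08 for LEA18, 3.26 for AtLEA4-1 and 3.21 for LEA4-5. For OLEO3, AT2G46140 and AT2G44060 it differed by 0.005, -0.05 and -0.34. The mean joins unlike genes. In wild type OLEO3 changed by -5.06 under Rc50, AT2G46140 by -0.32 and AT2G44060 by -0.25, and the other genes by 1.15 to 1.87. The part of these 8 genes in the values of AT3G02480 and of the other 34 genes was not tested.

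AT4G23680 and AT1G11850 were high on both lists, each among the 3 largest changes in either mutant. AT4G23680 had levels of 7.69, 8.24 and 8.94 in darkness and 8.83, 9.77 and 10.02 under Rc50 in phyABDE. In phyABCDE it had 8.74, 8.27 and 8.83 and 8.91, 9.16 and 9.82, which do not overlap, with a change of 0.69 ± 0.45 (adjusted p = 0.934). Its Rc50 arrays ranged from 8.91 to 9.82, more than its mean change. In wild type it was at 9.41, 9.35, 9.46 and 9.00 in darkness and 10.76 and 10.58 under Rc50, and after 2 h at 6.59 and 8.91 in phyABDE and 8.15 and 9.19 in phyABCDE, where each mutant had 1 array high and 1 low. AT1G11850 had 6.78, 5.91 and 6.63 and 7.06, 7.28 and 7.71 in phyABDE and 5.87, 5.61 and 6.30 and 6.57, 6.09 and 7.21 in phyABCDE. Its change in phyABCDE was 0.70 ± 0.31 (adjusted p = 0.864), and 1 of 3 Rc50 arrays lay within the dark range. Wild type had 6.82, 6.08, 6.09 and 5.98 in darkness and 8.61 and 8.48 under Rc50 for AT1G11850, and the DR2h arrays 5.15 and 6.53 in phyABDE and 6.01 and 6.46 in phyABCDE. No DR2h array of phyABDE reached its Rc50 range.

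AT2G42220 gave the largest change in phyABCDE, 0.79 ± 0.27 (adjusted p = 0.753). Its levels there were 7.26, 7.34 and 7.82 in darkness and 7.78, 8.41 and 8.61 under Rc50. In phyABDE they were 8.56, 7.63 and 8.71 and 8.80, 8.83 and 9.13. The lowest Rc50 array of phyABCDE lay just below its highest Dark array, while both groups of phyABDE were apart and stood higher on average. After 2 h AT2G42220 was at 7.59 and 8.34 in phyABDE and 7.47 and 8.16 in phyABCDE, and wild type under Rc50 was at 10.84 and 10.80, above every mutant array. AT5G16010 had the fourth largest, 0.64 ± 0.23 (adjusted p = 0.793), from 6.91, 7.04 and 7.41 in darkness to 7.77, 7.50 and 8.02 under Rc50, with no overlap. In phyABDE the same gene went from 7.11, 7.47 and 7.57 to 7.94, 8.08 and 8.44, again with no overlap. DR2h arrays of AT5G16010 had 6.82 and 7.89 in phyABDE and 7.23 and 7.60 in phyABCDE, and wild type 7.34, 7.18, 6.54 and 6.85 in darkness and 9.42 and 9.42 under Rc50. The wild-type Rc50 arrays were above every mutant array.

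AT1G10640 had the lowest adjusted p in phyABCDE, 0.659, for a change of 0.61 ± 0.17. Its levels were 4.84, 4.05 and 4.45 in darkness and 5.06, 5.00 and 5.10 under Rc50, all dim, and in phyABDE 4.44, 4.25 and 4.28 and 5.07, 5.17 and 5.33. Rc50 arrays exceeded Dark arrays in both mutants. After 2 h AT1G10640 was at 4.88 and 4.91 in phyABDE and 4.71 and 4.56 in phyABCDE, in phyABDE between both other groups. Its wild-type levels were 4.92, 5.09, 4.95 and 4.43 in darkness and 5.80 and 6.04 under Rc50. AT2G34460 had 6.92, 6.46 and 6.59 and 7.42, 7.54 and 7.48 in phyABDE and 6.46, 6.44 and 6.79 and 7.18, 6.89 and 6.88 in phyABCDE. There too the groups were apart in both mutants, with a change in phyABCDE of 0.42 ± 0.13 (adjusted p = 0.695). Its DR2h arrays, 6.50 and 6.79 in phyABDE and 6.65 and 6.75 in phyABCDE, lay within the dark range of each mutant. Wild type went from 6.74, 6.63, 6.50 and 6.54 to 8.98 and 8.98.

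At the other end, AT2G19310 was the 1 gene with a lower mean under Rc50 in phyABCDE, -0.13 ± 0.20 (adjusted p = 0.984). Its levels were 7.16, 7.62 and 7.11 in darkness and 7.10, 7.06 and 7.35 under Rc50, and in phyABDE 6.20, 6.93 and 6.89 and 7.11, 7.22 and 7.53. The groups of phyABDE were apart, which the choice of the genes favoured, and those of phyABCDE overlapped. DR2h arrays of AT2G19310 had 6.81 and 7.43 in phyABDE and 7.34 and 7.31 in phyABCDE, and wild type 6.39, 5.81, 5.47 and 5.97 in darkness and 7.17 and 7.22 under Rc50. Dark arrays of phyABCDE were thus above those of wild type and of phyABDE. AT3G04760 had 7.97, 8.52 and 7.86 and 8.14, 8.56 and 7.78 in phyABCDE, a change of 0.04 ± 0.19 (adjusted p = 0.994), against 8.67, 8.35 and 8.45 and 8.94, 9.22 and 9.23 in phyABDE. AT2G41950 had 7.32, 7.79 and 7.18 and 7.45, 7.65 and 7.44, a change of 0.08 ± 0.15 (adjusted p = 0.990), against 7.72, 7.48 and 7.68 and 8.17, 8.17 and 8.42. For both, Dark and Rc50 arrays of phyABCDE overlapped, and all Rc50 arrays of phyABDE stood above its Dark arrays. Since the genes were chosen on these phyABDE arrays, the contrast between the mutants is a description. After 2 h AT3G04760 was at 8.07 and 8.09 in phyABDE and 8.09 and 7.64 in phyABCDE, and wild type had 7.48, 7.99, 8.02 and 7.82 in darkness and 9.65 and 9.33 under Rc50. For AT2G41950 the DR2h arrays were at 7.45 and 7.73 in phyABDE and 7.41 and 7.26 in phyABCDE and wild type at 7.04, 6.39, 6.06 and 6.27 in darkness and 7.57 and 7.18 under Rc50. In phyABDE both DR2h arrays of AT3G04760 lay below its Dark arrays.

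The remaining genes lay between these. In phyABCDE, changes of 0.36 to 0.60 with all 3 pairs positive were found for AT5G27290 (0.60), AT4G33660 (0.53), AT2G29290 (0.52), AT2G30540 (0.52), AT1G44000 (0.47), AT1G66430 (0.45), AT5G01740 (0.45), AT4G27700 (0.42), AT1G14345 (0.39), AT1G74730 (0.37) and AT5G16030 (0.36). Smaller ones with all pairs positive were those of AT2G31790 (0.32), AT4G02530 (0.30), AT2G36145 (0.29) and AT3G29230 (0.25). With at least 1 negative pair came AT4G29030 (0.17), AT1G49750 (0.15), AT1G18060 (0.14) and AT2G29310 (0.12). None of these passed the test. In phyABDE the same genes had 0.61 to 0.80.

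Mean levels over the 35 genes show how the arrays compare. In phyABCDE they were 6.44, 6.54 and 6.62 in darkness and 6.84, 6.93 and 6.92 under Rc50. In phyABDE they were 6.70, 6.48 and 6.72 in darkness and 7.17, 7.37 and 7.58 under Rc50. Within each mutant no Rc50 array fell into the dark range, and wild type under Rc50 stood at 8.34 and 8.21, with the other kit. Gene by gene, phyABDE exceeded phyABCDE for 23 genes in darkness (median difference 0.20) and for 32 under Rc50 (median difference 0.46), as a description.

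**Figure D4:**
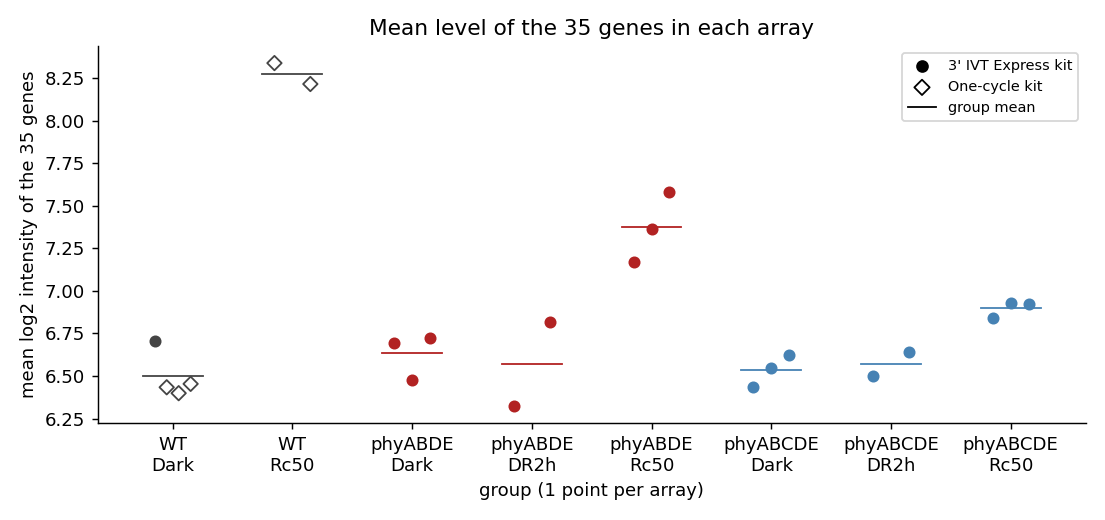
Mean log2 intensity of the 35 genes in each of the 22 arrays by group, with lines at group means; filled circles are arrays labelled with the 3' IVT Express kit and open diamonds those with the One-cycle kit. Rc50 arrays of phyABCDE lie at 6.84 to 6.93, above all its Dark and DR2h arrays and below the Rc50 arrays of phyABDE (7.17 to 7.58).

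After 2 h of red light, the second comparison, the 35 genes of phyABCDE showed no common direction. Of the changes against darkness 17 were above 0, with a median of -0.01 from -0.51 for ATLP-1 to 0.58 for AT4G33660. None was called (lowest adjusted p = 0.691, limma, 2 against 3 arrays), where 0.0176% of all probe sets were. At an unadjusted p under 0.05 stood 2 genes, UGT71B1 and AT4G33660, where 6.21% of all probe sets did. The DR2h and Dark arrays did not overlap for 4 genes, a share below that of all probe sets (24.6%): UGT71B1 and AT4G33660 were higher, and ATLP-1 and AT1G18060 lower.

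UGT71B1 was at 6.00 and 5.70 after 2 h in phyABCDE, within or just above its Rc50 range, a change of 0.56 ± 0.20 (adjusted p = 0.691). In phyABDE it was at 5.79 and 5.60 after 2 h, against 4.88, 5.31 and 4.43 in darkness and 5.55, 5.48 and 5.52 under Rc50. So in both mutants the mean after 2 h was above that under Rc50. AT4G33660 was at 7.29 and 7.56 after 2 h in phyABCDE, against 6.34, 7.08 and 7.11 in darkness, a change of 0.58 ± 0.24 (adjusted p = 0.740). In phyABDE, whose Dark arrays took part in choosing the genes, 10 of the 35 were above 0 after 2 h with a median of -0.06, the highest being AT3G02480 (1.07) and UGT71B1 (0.83). The DR2h arrays of phyABDE had mean levels over the 35 genes of 6.32 and 6.82, on either side of its Dark arrays (6.48 to 6.72).

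**Figure D5:**
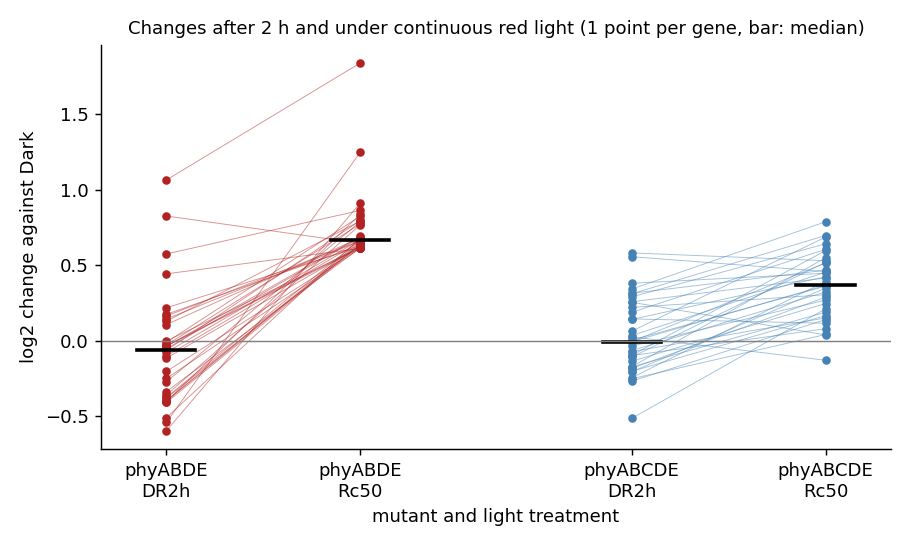
Change of log2 intensity against Dark after 2 h of red light (DR2h) and under continuous red light (Rc50) for the 35 genes, 1 point a gene joined by a line, in phyABDE (red) and phyABCDE (blue); black bars are medians. The medians after 2 h are -0.06 and -0.01, and under Rc50 0.67 and 0.37.

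The third comparison set both mutants side by side after 2 h of red light, with arrays that played no part in choosing the genes. Of the differences, phyABDE minus phyABCDE, 19 were above 0 and the median was 0.01. The 2 arrays of phyABDE were unlike, with mean levels over these genes of 6.32 and 6.82, against 6.50 and 6.64 in phyABCDE. Leaving out 1 array, the median ran from -0.11 to 0.27, so its direction depends on single arrays. None of the differences was called (lowest adjusted p = 0.280, limma, 2 arrays a group), where 1.2% of all probe sets were. At an unadjusted p under 0.05 stood 5 genes, where 11.4% of all probe sets did, a similar share. AT5G27290 (0.51), AT1G74730 (0.48), CURT1C (0.41) and AT3G29230 (0.41) had higher values in phyABDE, and AT3G02480 lower ones (-1.71 ± 0.66). The levels of CURT1C were 8.64 and 8.95 in phyABDE and 8.31 and 8.46 in phyABCDE, which do not overlap. With 2 arrays a group such a separation carries little weight, and the adjusted p of CURT1C was 0.399 (limma). With a limma model of the 4 arrays compared alone, AT3G02480 was called (adjusted p = 0.032), while the main model gave 0.280 for it. The smaller model rests on 2 arrays a group, and its share of calls over all probe sets is not given here.

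The fourth comparison set dark-grown phyABCDE against dark wild type, which with the term for the kit rests on WT Dark replicate 1. Of the 35 genes 12 had higher values in the mutant, the median difference was -0.23, and 3 were called, where 3.6% of all probe sets were. The comparison set had a median of -0.11 and all probe sets one of -0.02. At an unadjusted p under 0.05 stood 12 genes, 5 higher and 7 lower in phyABCDE, where 17.2% of all probe sets did.

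AT2G42220 was at 7.26, 7.34 and 7.82 in dark phyABCDE and at 8.90 in WT Dark replicate 1, lower by 1.43 on the log2 scale (-1.43 ± 0.38, adjusted p = 0.043, limma). The other WT Dark arrays, of the other kit, had 8.76, 8.54 and 8.80, so each wild-type array was above each mutant one. iqd21 was at 6.61, 6.31 and 6.41 against 7.22, a difference of -0.77 ± 0.20 (adjusted p = 0.035), and the other WT Dark arrays had 6.86, 6.54 and 6.70, of which 1 lay within the range of the mutant. AT3G29230 was at 5.65, 6.09 and 5.81 against 5.07, a difference of 0.78 ± 0.19 (adjusted p = 0.024). Here the other WT Dark arrays had 5.64, 5.84 and 5.55, of which 1 lay within the range of the mutant. In phyABCDE under Rc50 AT3G29230 had 6.24, 6.18 and 5.87 and in phyABDE 5.94, 5.99 and 5.78 in darkness and 6.48, 6.59 and 6.52 under Rc50. Its DR2h arrays had 5.99 and 6.26 in phyABDE and 5.82 and 5.61 in phyABCDE, and wild type under Rc50 had 6.79 and 6.59. The Rc50 arrays of phyABCDE were below those of both other genotypes. All 3 calls were lost without phyABCDE Dark replicate 2 (adjusted p = 0.077 to 0.106) and with only the arrays compared (0.055 to 0.083).

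None of the 35 genes is on the gene lists drawn up for light signalling, the clock, chloroplast regulation, light harvesting, photosystems, carbon fixation, tetrapyrroles, flavonoids, nitrogen, sugar starvation or seed maturation. This was largely fixed beforehand: the nitrogen and sugar starvation lists have no named probe set, most others 1 to 3, and CaS and LHCB4.2, which met both conditions, were set aside by name, as PSAE-1, PSAN, PSBW, PSBY, RCA, PRK and SBPASE would have been. Of the 5 chloroplast lists 19 genes have a named probe set. In wild type 18 of them had positive values under Rc50, with a median of 1.34. There 16 were called higher and 1 lower, where 13.7% of all probe sets were called higher. In phyABDE and phyABCDE all 19 had positive values and none was called, with medians of 0.26 and 0.24, against 0.67 and 0.37 for the 35 genes. LHCB4.2 had 0.78 and 0.62, HEME1, an enzyme of tetrapyrrole synthesis, 0.31 and 0.53, and the photosystem gene PSAN 0.15 and 0.24. The 2 light signalling genes with a probe set were HYH, a bZIP factor (0.52 and 0.22), and FHL, a partner of phytochrome A (-0.30 and 0.10).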

How the data were processed

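RNA of 22 whole-seedling samples in 8 groups was measured on ATH1 arrays. The deposited table holds a linear intensity for each probe set and array; RMA, GCOS and limma appear in the submitters' processing notes with neither version nor role, and no further step of the authors is stated. Values were taken as log2 of the deposited intensity, with array medians of 40.41 to 45.12 and no further normalization. Of 22810 probe sets, 64 controls were left out. GEO's platform annotation names 1 gene for 13513 of the rest, several for 503, and 8730 are unnamed here; 13436 of the single genes matched RefSeq (TAIR10.1), used for names and neighbour order only. Promoters, proteins and motifs were not used here.

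All tests used limma 3.58.1 (lmFit and eBayes) in R 4.3.3 over the 22 arrays, with a mean for each of 8 groups, a term for the labelling kit, 13 residual degrees of freedom, and Benjamini-Hochberg adjustment over 22746 probe sets in each of 4 comparisons. Errors are standard errors. The series text gives the One-cycle kit for 5 wild-type arrays, which was followed; the labels of single samples name the 3' IVT Express kit for all. Per the labels the replicates are biological, with no word on separate cultures. The p-values rest on the spread between these samples, estimated over all 8 groups together. The number of arrays limits the precision. Plots were drawn with matplotlib 3.10.9 in Python 3.11.15. The fits were tested on simulated data.

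Equal replicate numbers were taken as pairs of Dark and Rc50 arrays, since the correlations of their deviations from group means were 0.33, 0.12 and 0.25 for phyABCDE and 0.48, 0.18 and 0.11 for phyABDE. In phyABDE unequal numbers also correlated, Dark 2 with Rc50 3 at 0.14 and Dark 3 with Rc50 2 at 0.18, so its numbers 2 and 3 are not told apart by this check; the main model is unpaired. The members and lists were chosen with earlier results of these data known. Every member is named. Values in every array are given for members called in a tested comparison, the 6 with the largest change in phyABDE, and the 4 largest and 4 smallest in phyABCDE. Beyond that rule, values in some or all arrays are given for members with a symbol. The same holds for a gene where a comparison after 2 h turned on it, which was chosen after its values were seen. Alternatives were no kit term, only the arrays compared, an offset of 16, a filter on level, quantile normalization, array weights, single-gene probe sets, the replicate block and leaving out single arrays; those for the rule itself and for the counts of pairs and overlap were chosen after seeing the data.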

Additional observations from a re-analysis of the deposited data

Results flagged for a closer look

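In the 4 WT Dark arrays, 3 of the 35 genes had 1 array far from the others, in each case replicate 1, which is also the array labelled with the 3' IVT Express kit among One-cycle arrays. AT1G11850 stood at 6.82 there, with the others at 5.98 to 6.09. AT4G02530 stood at 8.15, with the others at 7.83 to 7.86. AT1G14345 stood at 8.12, with the others at 7.35 to 7.41. The GAPDH 3' minus 5' signal was -0.051 in WT Dark replicate 2 and 0.20 to 0.24 in the others. In all, 39 quantities were checked and 4 stood apart by Dixon's test, where chance gives about 1 in 20. The fourth comparison rests on WT Dark replicate 1, so the differences of these genes there share that array: AT1G11850 had -0.89 ± 0.44, AT4G02530 0.05 ± 0.20 and AT1G14345 -0.56 ± 0.30, none of them called by limma.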

How the results depend on the processing

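None of the 35 genes was called under Rc50 or after 2 h in phyABCDE with any alternative or array left out. The genes kept their direction in 477 of 485 alternatives under Rc50; the exceptions came from leaving out 1 array, with ranges of -0.69 to 0.76 for AT3G02480 (-0.69 without Rc50 replicate 2, -0.07 without Dark replicate 3), -0.16 to 0.24 for AT3G04760 (-0.16 without Rc50 replicate 2, -0.03 and -0.09 without Dark replicates 1 and 3), -0.021 to 0.30 for AT2G29310, -0.22 to 0.032 for AT2G19310 and -0.045 to 0.26 for AT2G41950. The median under Rc50 ran from 0.33 to 0.47 leaving out 1 array. Genes with all pairs positive were 28 to 30 leaving out a replicate number, and those without overlap 18 to 21 leaving out an array. With fewer arrays to meet the condition, these counts could not fall below the 27 and 16 of the full data. They therefore do not show how far the counts depend on single arrays. Over all probe sets, the 2 calls under Rc50 in phyABCDE became 0 with only the arrays compared, an offset of 16 or the replicate block, 1 with the level filter, array weights or single-gene probe sets, and 0 to 1 leaving out an array. The 4 calls after 2 h became 1 with only the arrays compared or single-gene probe sets, 15 with array weights, 22 with the replicate block and 1 to 5 leaving out an array. The replicate block, fitted for these 2 comparisons only, called none of the 35 genes in either. Between the mutants after 2 h, 1 of the 35 genes, AT3G02480, was called with only the arrays compared. The share of calls over all probe sets in that setting is not given here, so this call has no background beside it. The 274 calls over all probe sets became 176 with the level filter, 998 with array weights, 143 with single-gene probe sets and 77 to 118 leaving out an array. For dark phyABCDE against wild type the 3 called genes became 0 with only the arrays compared and 0 to 3 leaving out an array, the 819 calls became 437 with single-gene probe sets and 529 to 837 leaving out an array, and the median ran from -0.34 to -0.22. There AT2G42220 also lost its call with an offset of 16 (adjusted p = 0.073), array weights (0.057) or without Dark replicate 1 (0.085), and iqd21 without Dark replicate 3 (0.064), while OTP81 was called with quantile normalization (1.04, adjusted p = 0.047) and without Dark replicate 3 (1.20, adjusted p = 0.033). Choosing the genes with an offset of 16 gave 17, of which 14 are among the 35, and with quantile normalization 34, all among them. The cause of these changes was not tested.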
